A study of Homo sapiens with 6 samples.

Results

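The CC chemokines are small secreted proteins that attract leukocytes, named for a pair of neighbouring cysteines near their amino end. The 10 family members considered were CCL2, CCL3, CCL4, CCL5, CCL7, CCL8, CCL18, CCL20, CCL22 and CCL23, and every probe set that the platform annotation assigns to exactly 1 of them was taken, whatever its value. This gave 13 probe sets for 9 genes, of 19775 genes with a probe set of their own, 54675 probe sets on the array and 54613 tested without control probe sets. CCL3 is the 1 listed gene with no such probe set, and CCL5 (3 probe sets), CCL18 and CCL23 (2 each) have several. The samples were THP1, an established human monocytic acute myeloid leukaemia cell line, as 3 samples labelled Dll4-Fc treated and 3 labelled untreated, with 1 Affymetrix U133 Plus array each. Dll4-Fc fuses Delta-like 4, a ligand of Notch receptors, to the Fc part of an antibody. Treated cells grew for 48 hours on plates coated with it, at 60 nM by the sample labels and 30 nM by the treatment protocol, so the dose is uncertain; the other cells are called untreated in the sample labels and vehicle in the protocol. The labels name no Fc-only coating, and both groups are the same single cell line. Whether replicates were grown separately is not said, so the p-values rest on a spread between arrays that may be technical. By its title, the study asked how Notch activation acts on acute myeloid leukaemia cells.

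CC chemokines act through G protein-coupled receptors whose ligand sets overlap: CCL2, CCL7 and CCL8 bind CCR2, CCL5 and CCL23 bind CCR1, CCL20 binds CCR6 and CCL22 binds CCR4. Monocytes and macrophages are a main source of several of them, and many of these genes are switched on by NF-kB and by interferon or cytokine signalling through STAT factors. In the RefSeq gene order, 7 of the 9 measured genes lie on chromosome 17, in 2 groups. CCL2 and CCL7 are neighbours, and CCL11 is the 1 protein-coding gene between CCL7 and CCL8. After 27 further protein-coding genes comes CCL5, then, past another 5, CCL23, which is followed directly by CCL18, CCL3 and CCL4. CCL20 lies on chromosome 2 and CCL22 on chromosome 16.

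Promoter windows of CCL8, which rose, its near neighbour CCL7, which did not pass the test, and CCL23, which fell, are printed to show the sequence before the start of genes from the same chromosome that differed in their values. Each is the RefSeq window of GRCh38.p14, from 250 bases before the annotated start to 50 after it, 5′ to 3′ on the gene's strand. Capitals mark matches, on either strand, to TATAAA (the TATA box), TGGGAA (the core bound by the Notch effector CSL, also called RBPJ) or TTCNNNGAA (the GAS element bound by STAT factors, which reads the same on both strands).
CCL8 at chr17:34319185-34319484, plus strand: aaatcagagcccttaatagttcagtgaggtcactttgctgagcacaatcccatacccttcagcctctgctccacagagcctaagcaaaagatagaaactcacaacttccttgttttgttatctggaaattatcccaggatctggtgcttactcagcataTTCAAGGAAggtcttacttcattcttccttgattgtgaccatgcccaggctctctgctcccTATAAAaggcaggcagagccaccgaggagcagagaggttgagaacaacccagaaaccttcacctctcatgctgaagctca
CCL7 at chr17:34269971-34270270, plus strand: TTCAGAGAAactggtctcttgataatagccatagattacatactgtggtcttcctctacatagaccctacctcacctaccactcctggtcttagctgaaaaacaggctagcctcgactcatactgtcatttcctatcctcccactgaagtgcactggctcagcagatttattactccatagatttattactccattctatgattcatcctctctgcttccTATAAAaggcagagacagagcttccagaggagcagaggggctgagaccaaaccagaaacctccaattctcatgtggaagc
CCL23 at chr17:36017923-36018222, minus strand: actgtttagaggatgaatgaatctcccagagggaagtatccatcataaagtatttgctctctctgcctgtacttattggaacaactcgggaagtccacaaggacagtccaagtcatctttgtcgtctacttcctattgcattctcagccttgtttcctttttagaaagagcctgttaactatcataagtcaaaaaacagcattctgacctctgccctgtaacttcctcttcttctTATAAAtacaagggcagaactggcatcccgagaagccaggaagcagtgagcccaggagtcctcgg

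A window was found for 6 of the 9 measured genes: CCL7, CCL8, CCL18, CCL20, CCL22 and CCL23. TATAAA was present in 5 of the 6, against 11.5% of all 35116 promoter windows of this length; the window of CCL22 had no match. In the CCL8 and CCL7 windows it began 30 bases before the start, and in CCL23 15 bases before it. TTCNNNGAA was present in CCL8, beginning 91 bases before the start, and in CCL7, beginning 250 bases before it, against 7.66% of all windows. TGGGAA was present in CCL20 and CCL18, against 24.0% of all windows, and no match overlapped another. In a global alignment the CCL8 and CCL7 windows were identical over 60.5% of the alignment, and the other 14 pairs of windows over 47.6% to 56.6%. These matches describe letters in the window, not binding.

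In cells on Dll4-Fc the signals of CCL4, CCL8 and CCL2 were 3.79-fold, 3.22-fold and 2.43-fold higher than in untreated cells, and that of CCL23 was 3.05-fold and 2.93-fold lower by its 2 probe sets. CCL5 was higher by 1.25-fold or less, with 2 of its 3 probe sets passing; with 1 array left out, 1 of these passed only without untreated replicate 2 and the other never. CCL7, CCL18, CCL20 and CCL22 did not pass the test. Of the 13 probe sets, 5 passed as higher and 2 as lower at an adjusted p under 0.05 (limma, Benjamini-Hochberg over all probe sets), against 7.21% of all probe sets that passed as higher and 9.26% that passed as lower. The number higher was 3, not 5, after median centring or with a block for the replicate number. It was also 3 without Dll4-Fc replicate 1, 2 or 3 or untreated replicate 1. Each of these settings lost both CCL5 calls. The groups did not overlap for 9 of the 13, against 33.2% of all probe sets. The median difference was 0.25 over the 13 and -0.02 over all probe sets. Each difference is a log2 value, the Dll4-Fc mean less the untreated mean; ± gives the SD over 3 arrays after a group mean and the standard error after a difference, and folds are powers of 2 of the difference.

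**Figure D1:**
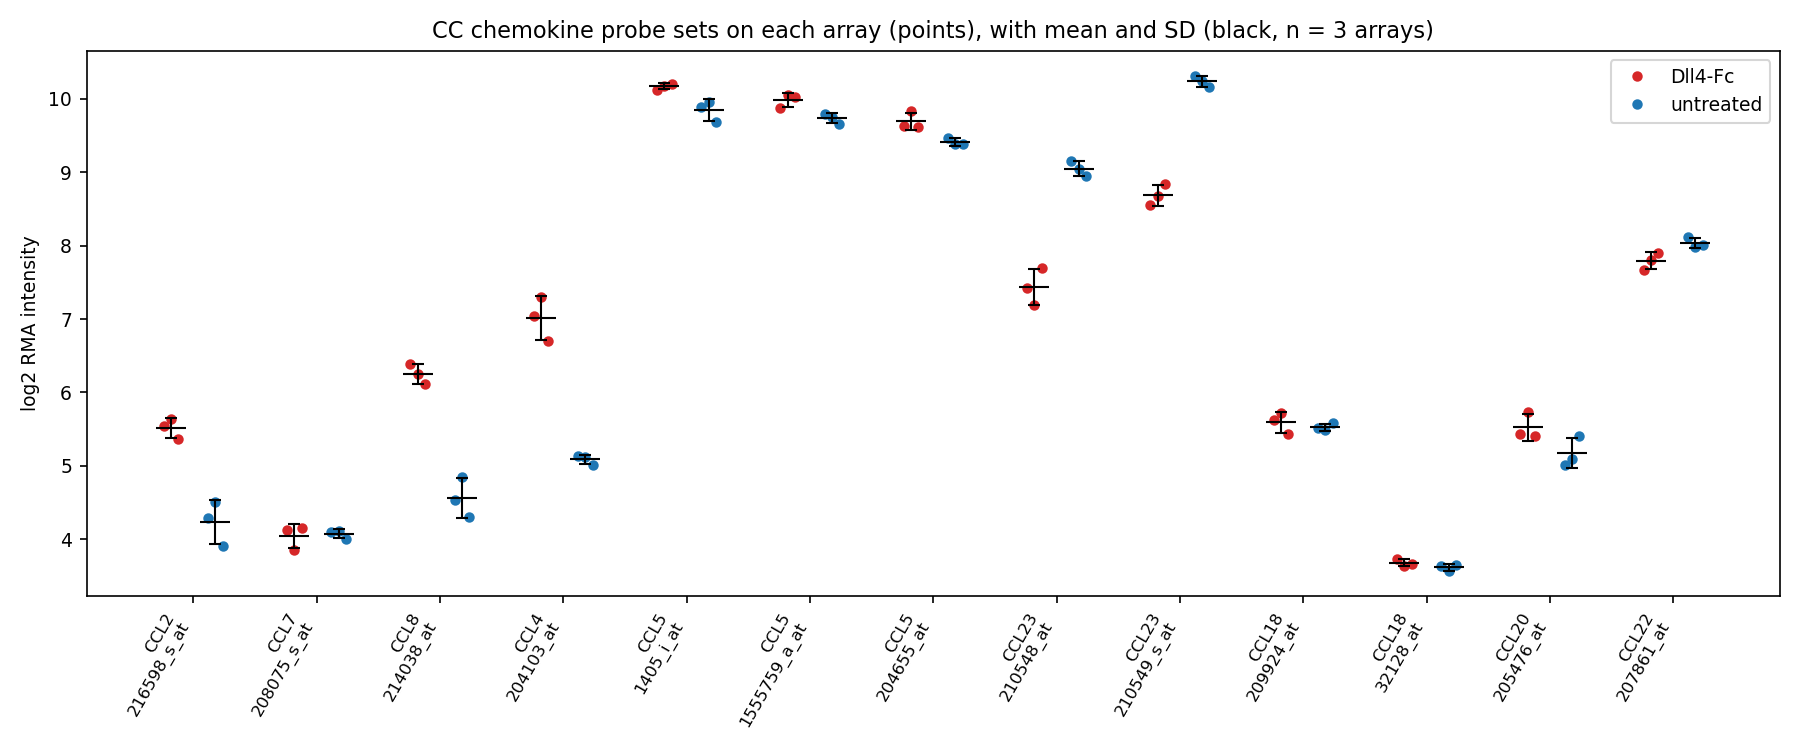
Log2 RMA intensity (y axis) of each of the 13 CC chemokine probe sets (x axis) on each array, Dll4-Fc (red, left of each pair) and untreated (blue, right); points are arrays and black bars the mean and SD of 3. CCL2, CCL8 and CCL4 lie higher on all 3 Dll4-Fc arrays, CCL23 lies lower on all 3, and the CCL5 groups lie close together without overlap.

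Over all probe sets, Pearson correlations were 0.996 to 0.998 within groups and 0.984 to 0.988 between groups. Principal component analysis split the groups along its first axis (75.9% of the variance), and untreated replicate 3 lay farthest out on the second (9.93%). Among all probe sets, 3937 passed as higher and 5059 as lower, so 43.8% of the calls were higher; after cyclic loess the share was 54.2%. HES1, a repressor that Notch switches on, was higher by 2.93 ± 0.19 (adjusted p = 4.18e-05). On its brightest probe set that is not shared between transcripts HES1 differed by 0.00 (adjusted p = 0.99). HES4 was higher by 1.47 ± 0.18 (adjusted p = 0.00106) on a shared probe set, 227347_x_at, and was not measured without shared probe sets. HEY1 (0.09), NRARP (-0.14), DTX1 (-0.11), GAPDH (0.06) and ACTB (0.14) did not pass. Among all 19775 genes, each read through its brightest probe set, 10.1% passed as higher and 12.1% as lower. The marker counts that follow were made the same way and are to be read beside these shares. Of 8 measured monocyte and macrophage markers 5 rose and 1 fell, and FCGR1A (0.18) and CD4 (0.06) did not pass. FCGR1A was dim, at 4.53 in untreated cells. CD14 rose by 5.64, LYZ by 2.00, CSF1R by 1.75 and ITGAM by 1.71 (-0.12, adjusted p = 0.621, without shared probe sets), while MPO, a granule enzyme of myeloid precursors, fell by 0.79; the fifth rise was that of SPI1 (0.31). The summed intensity of these 8 was 17376 to 19749 on Dll4-Fc arrays and 4677 to 5020 on untreated arrays. Most of each sum came from LYZ, the brightest of the 8, with a mean log2 signal of 13.87 with Dll4-Fc and 11.87 without. Among 13 T, B and natural killer cell markers only GNLY (5.30) and PAX5 (0.60) passed, while the T cell receptor chains CD3D, CD3E and CD3G differed by -0.02, -0.04 and -0.03. The list's summed intensity was 2012 to 2207 with Dll4-Fc and 745 to 782 without, but its median difference was -0.002. GNLY alone had a mean log2 signal of 10.35 with Dll4-Fc and 5.05 without. Of 4 erythroid and platelet markers GP9 passed (-0.25, adjusted p = 0.0491, and not when any 1 array was left out), with sums of 324 to 360 and 366 to 411, and of 12 fibroblast, endothelial and epithelial markers PECAM1 passed (0.55), with sums of 5437 to 5647 and 3840 to 4129. The median difference of these 12 was 0.04, and PECAM1 was the brightest of them at 11.71 in untreated cells. RMA gives no value of 0, so absence of a marker cannot be read from these sums, and the part of these shifts in the chemokine values was not tested. In RNA from whole cultures, a change in the number of cells making a chemokine and a change in RNA per cell cannot be told apart.

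Among the monocyte chemoattractants that bind CCR2, CCL8 and CCL2 rose and CCL7 did not pass. CCL8, which attracts monocytes and other leukocytes, had log2 signals of 6.39, 6.25 and 6.12 on the Dll4-Fc arrays, against 4.53, 4.85 and 4.31 on the untreated arrays. The groups did not overlap, and the lowest Dll4-Fc array lay above the highest untreated array by more than the whole range of either group. The difference was 1.69 ± 0.14, or 3.22-fold (adjusted p = 0.000136), and 387 of the 54613 probe sets had a larger rise. CCL2, the main attractant of classical monocytes, had 5.55, 5.64 and 5.37 with Dll4-Fc, against 4.29, 4.51 and 3.91 without. All 3 Dll4-Fc arrays were higher, and the untreated arrays were more spread out (SD 0.30) than the treated arrays (SD 0.14). The difference was 1.28 ± 0.15, or 2.43-fold (adjusted p = 0.000808). For both genes untreated replicate 3 was the lowest array and untreated replicate 2 the highest of their group. Without untreated replicate 3 the differences were 1.56 for CCL8 and 1.12 for CCL2, and both passed whichever array was left out.

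CCL7, which attracts monocytes through CCR2 and other receptors, had 4.13, 3.85 and 4.15 with Dll4-Fc, against 4.11, 4.12 and 4.01 in untreated cells. The groups overlapped, with Dll4-Fc replicate 2 the lowest of the 6. The difference was -0.03 with a 95% confidence interval of -0.25 to 0.18 (adjusted p = 0.88), so on this probe set a rise of the size seen for CCL2 or CCL8 lies outside the interval. The probe set was dim, with a mean signal above only 21.6% of all probe sets, and RMA shrinks differences of dim probe sets. Mean signals of CCL2 and CCL8 in untreated cells, 4.24 ± 0.30 and 4.57 ± 0.27, also lay below the median probe set of 5.70, as did CCL4 at 5.09 ± 0.06, so the sizes of these 3 folds are uncertain. The median of 16 measured genes typical of other organs was 5.38 in untreated cells, with a range of 3.45 to 10.65; 2 of the 16 passed, MBP (0.69, the brightest) and TNNI3 (-0.55), so the list is only a rough guide to the brightness of unexpressed genes.

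CCL4 rose, and CCL5 moved little. CCL4, also known as macrophage inflammatory protein 1 beta and made by activated monocytes and lymphocytes, had 7.03, 7.30 and 6.71 on Dll4-Fc arrays, against 5.13, 5.13 and 5.02 on untreated arrays. Here the treated arrays were the more spread out (SD 0.30, against 0.06), and even the lowest of them lay well above the untreated arrays. The difference of 1.92 ± 0.14, or 3.79-fold, was the largest rise of the 13 (adjusted p = 6.32e-05), with 311 probe sets rising more.

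CCL5, which attracts T cells and monocytes through CCR1 and other receptors, was measured by 3 probe sets, all brighter than 87.6% of the array or more. The first, 1405_i_at, had 10.12, 10.18 and 10.20 with Dll4-Fc, against 9.89, 9.96 and 9.68 without. The second, 204655_at, had 9.63, 9.82 and 9.61, against 9.47, 9.38 and 9.38, and the third, 1555759_a_at, 9.87, 10.06 and 10.02, against 9.79, 9.74 and 9.66. In all 3 the groups stood apart without overlap, by a gap narrower than the range of the more spread group. The differences were 0.32 ± 0.09 (adjusted p = 0.0367), 0.28 ± 0.08 (0.0484) and 0.25 ± 0.08 (0.0631), so 2 of the 3 passed. Neither call held throughout. With 1 array left out, the first passed only without untreated replicate 2 (0.0421, against 0.0528 to 0.108 without any other) and the second never passed (0.0631 to 0.149). Both also failed after median centring (0.0591 and 0.0604), while the third passed after cyclic loess (0.0214), with a trended robust prior (0.00877) and without dim probe sets (0.0286).

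CCL23, a CCR1 ligand known for attracting monocytes and for inhibiting the proliferation of myeloid progenitors, was the only 1 of the 9 genes with a lower call. Probe set 210549_s_at had 8.55, 8.67 and 8.83 on Dll4-Fc arrays, against 10.31, 10.23 and 10.16 on untreated arrays. Probe set 210548_at had 7.42, 7.19 and 7.69, against 9.14, 9.04 and 8.94. Both sets show the untreated arrays close together and every Dll4-Fc array more than 1 log2 unit below them. The differences were -1.55 ± 0.09 (2.93-fold lower, adjusted p = 1.85e-05) and -1.61 ± 0.12 (3.05-fold lower, adjusted p = 9.76e-05), and the confidence intervals, -1.76 to -1.35 and -1.90 to -1.32, cover each other's estimate. Of the 54613 probe sets 22 and 19 fell more. Leaving out any 1 array moved the differences within -1.63 to -1.48 and -1.74 to -1.49, and both passed each time. CCL18, the next gene along the chromosome, did not pass.

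**Figure D2:**
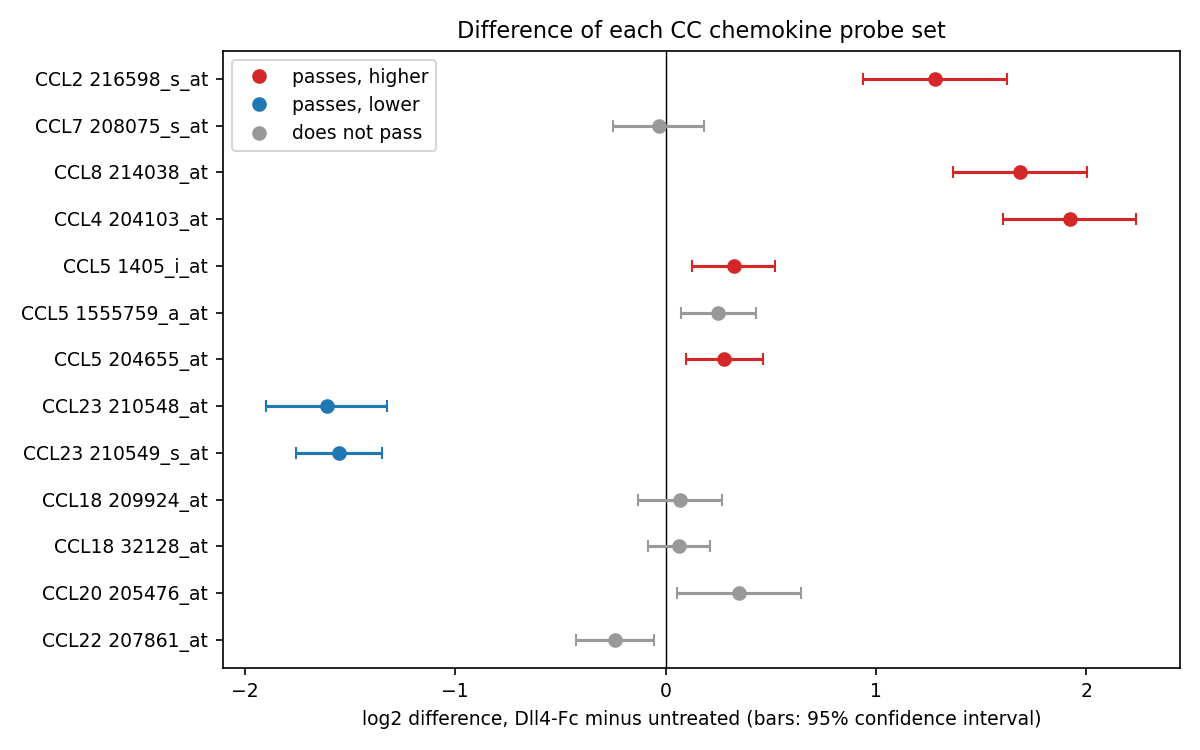
Log2 difference, Dll4-Fc minus untreated (x axis), of each CC chemokine probe set (y axis); bars are 95% confidence intervals from limma, red passes as higher, blue as lower and grey does not pass. CCL4, CCL8 and CCL2 lie between 1.28 and 1.92, the CCL23 probe sets at -1.55 and -1.61, and the other 8 between -0.24 and 0.35.

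The remaining 3 genes are chemokines of dendritic cells, alternatively activated macrophages and mucosal surfaces, and none passed. CCL18, made in humans by alternatively activated macrophages and dendritic cells, had 5.62, 5.72 and 5.44 with Dll4-Fc, against 5.51, 5.49 and 5.58 without, on probe set 209924_at. Its groups overlapped, and the difference was 0.07 (95% confidence interval -0.13 to 0.27, adjusted p = 0.688). Probe set 32128_at, the dimmest of the 13, gave 3.73, 3.64 and 3.67, against 3.64, 3.57 and 3.65, a difference of 0.06 (-0.09 to 0.21, adjusted p = 0.615).

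CCL20, which guides CCR6-bearing dendritic cells and lymphocytes, had 5.44, 5.74 and 5.40 on Dll4-Fc arrays, against 5.02, 5.10 and 5.41 on untreated arrays. Only untreated replicate 3 reached the level of the Dll4-Fc arrays. The difference was 0.35 ± 0.13 (95% confidence interval 0.06 to 0.64, adjusted p = 0.111), and it passed without that array (0.47, adjusted p = 0.0319) and with array weights (0.39, 0.0272). CCL22, which attracts CCR4-bearing T cells, had 7.67, 7.81 and 7.90 with Dll4-Fc, against 8.12, 7.98 and 8.01 in untreated cells. Its groups did not overlap, by a gap smaller than the range of either group. The difference was -0.24 ± 0.08 (-0.43 to -0.05, adjusted p = 0.0877), and it passed with array weights (0.0438), without dim probe sets (0.0431) and when genes were tested as the mean of their probe sets (0.0453).

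CC chemokine and atypical receptor genes, not only those for these ligands, were read through 1 probe set each. It was the one with the highest mean over the 6 arrays, as for the other gene lists. Of 12 measured receptor genes 3 rose and 0 fell, with a median difference of 0.13, against -0.01 over all 19775 genes so represented; 10.1% of those genes passed as higher and 12.1% as lower. CCR1, the receptor of CCL23 and CCL5, rose by 1.22 ± 0.07 (2.33-fold, adjusted p = 2.19e-05), with means of 12.10 in Dll4-Fc cells and 10.88 in untreated cells. CCR2, the receptor of CCL2, CCL7 and CCL8, rose by 0.39 ± 0.07 (1.31-fold, adjusted p = 0.00545). CCRL2, an atypical receptor that binds the attractant chemerin, rose by 1.73 ± 0.10 (3.32-fold), a size that is uncertain because its untreated mean of 5.11 was dim. CCR4 (0.12), CCR6 (0.00) and CCR8 (0.12) did not pass. CCR3 had no probe set with exactly 1 symbol.

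Other chemokines were read the same way, beside the 10.1% of all genes that passed as higher and the 12.1% that passed as lower. Of 11 further measured CC chemokines 0 rose and 1 fell, the latter near the share of all genes, with a median of 0.04. Under 5 alternatives, among them cyclic loess, 2 passed. The 1 that fell was CCL28, a chemokine of mucosal epithelia, at 7.45 with Dll4-Fc and 8.59 without (-1.13 ± 0.10, 2.19-fold lower, adjusted p = 0.000155). Alternatives that kept all arrays gave it differences of -1.21 to -0.56, and it passed each time. Of 19 CXC, XC and CX3C chemokines 7 rose and 0 fell, with a median of 0.17. CXCL10 and CXCL11, both interferon-induced ligands of CXCR3, rose by 3.98 ± 0.17 and 1.45 ± 0.23, and the neutrophil attractants CXCL8 and CXCL1 by 2.66 ± 0.15 and 0.91 ± 0.15. In untreated cells CXCL10 (4.67), CXCL11 (3.63) and CXCL1 (5.35) lay below the median probe set, so the sizes of these changes are uncertain. CXCL11 differed by 0.44 to 1.61 in the alternatives that kept all arrays, and passed each time. The count of 7 was 4 without dim probe sets, where fewer of the genes are measured.

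**Figure D3:**
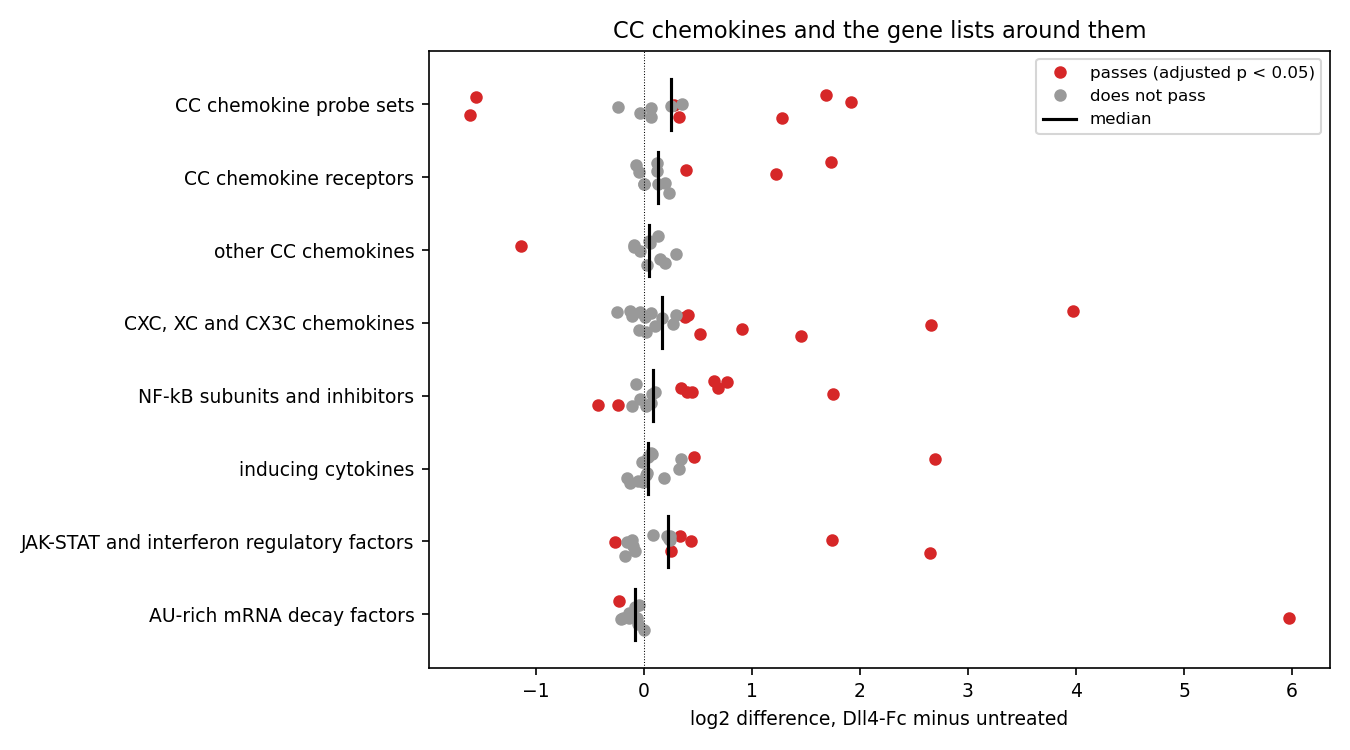
Log2 difference, Dll4-Fc minus untreated (x axis), of the CC chemokine probe sets and of each gene in 7 lists around them (y axis, points spread vertically for view); red points pass at an adjusted p under 0.05, grey points do not, and black lines are medians. The list medians lie between -0.08 and 0.25, and single genes reach 5.97 (ZFP36L1).

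Regulators known to act on CC chemokine genes were counted in 4 lists, to be read beside the 10.1% of all genes that passed as higher and the 12.1% that passed as lower. Of 16 NF-kB subunits, kinases and inhibitors 7 rose and 2 fell (median 0.09), and 4 passed without shared probe sets. NFKBIZ, an atypical inhibitor that also coactivates some targets, rose most, by 1.75 ± 0.12. TNFAIP3, an inhibitor which edits ubiquitin chains, rose by 0.77 ± 0.06 and the inhibitor gene NFKBIE by 0.69 ± 0.07. RELB (0.45), CHUK (0.40) and NFKBIB (0.34) also passed as higher, while the inhibitor genes NFKBIA (0.02) and TNIP3 (-0.07) did not pass. The kinase gene IKBKE rose by 0.65 ± 0.07, and the 2 that fell were the subunit gene REL (-0.43) and TNIP1 (-0.24), a partner of TNFAIP3. Of 15 cytokines that induce chemokines 2 rose, a share near that of all genes, and 0 fell (median 0.04): IL1B by 2.69 ± 0.15 (6.47-fold, adjusted p = 1.73e-05) and CSF1 by 0.46 ± 0.11 (adjusted p = 0.0265). CSF1 did not pass when either Dll4-Fc replicate 2, Dll4-Fc replicate 3, untreated replicate 1 or untreated replicate 2 was left out (0.0862 to 0.092), nor as the mean of its probe sets (0.08, adjusted p = 0.444). With array weights 4 of the 15 passed. TNF (0.34), IFNB1 (0.18) and IFNG (0.04) did not pass.

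Of 16 measured Janus kinases, STAT factors and interferon regulatory factors 5 rose and 1 fell (median 0.22); the number passing was 3 without Dll4-Fc replicate 1, Dll4-Fc replicate 2 or untreated replicate 2, and 10 with a trended robust prior. IRF7 and IRF9, which drive interferon responses, rose by 2.65 ± 0.10 and 1.74 ± 0.07. IRF2 rose by 0.44 ± 0.09 and IRF1 by 0.34 ± 0.09 (adjusted p = 0.0437); IRF1 did not pass without any 1 array other than untreated replicate 1 (0.0512 to 0.148), nor after median centring (0.0562). The fifth rise was that of STAT3 (0.26), and IRF5 fell (-0.27). Of 11 factors linked to AU-rich mRNA decay 1 rose and 1 fell (median -0.08), also near the shares of all genes, and 6 passed with a trended robust prior. ZFP36L1 rose by 5.97 ± 0.11, but its brightest probe set that is not shared between transcripts gave 0.18 (adjusted p = 0.267). CNOT1, the scaffold of the deadenylase complex, differed by -0.23 ± 0.06 (adjusted p = 0.0339) and did not pass when any 1 array was left out (0.0555 to 0.117).

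**Figure D4:**
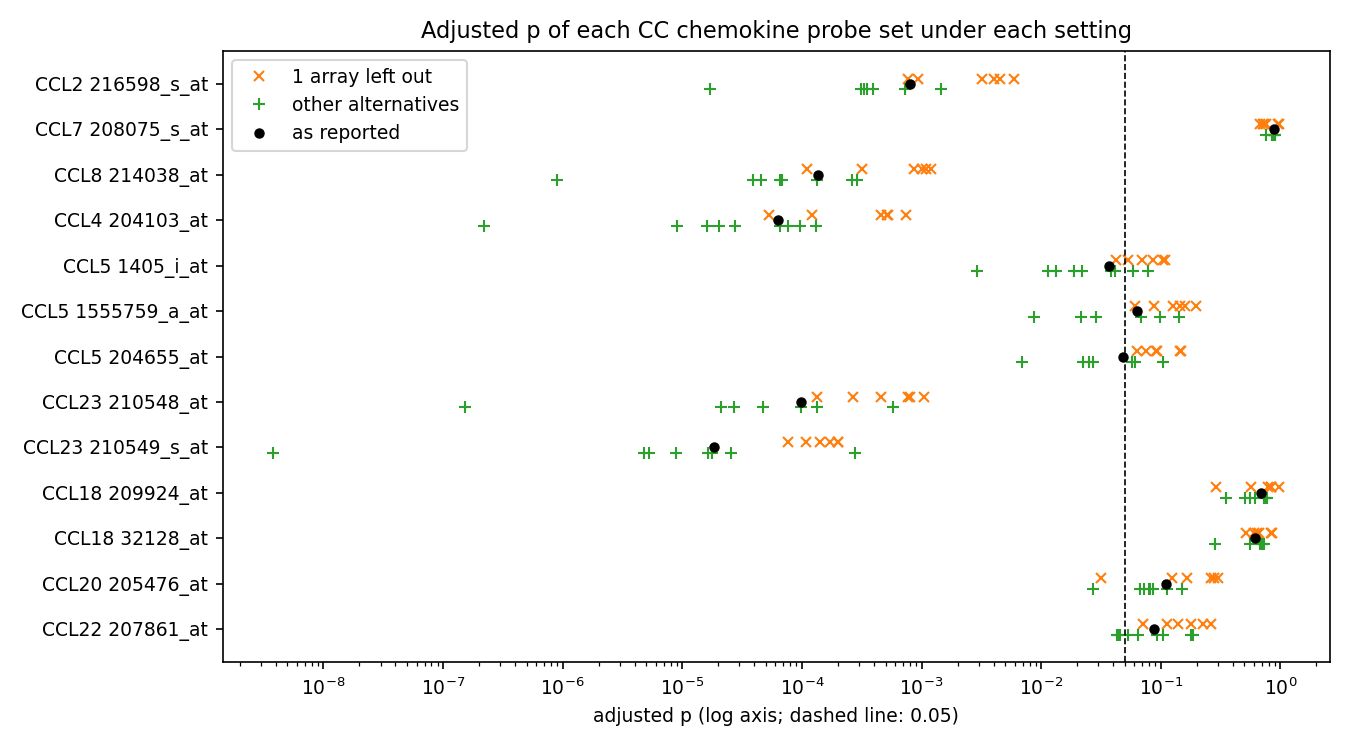
Adjusted p (x axis, log scale, dashed line at 0.05) of each CC chemokine probe set (y axis) as reported (black), with 1 array left out (orange) and under the other alternatives (green). CCL2, CCL4, CCL8 and both CCL23 probe sets stay left of the line throughout, the CCL5, CCL20 and CCL22 sets lie on both sides of it, and CCL7 and CCL18 stay right of it.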

How the data were processed

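The authors made the deposited table with RMA (background correction, quantile normalization, probe set summary), per the submitters' processing notes, which give no version. Its values are linear intensities, with array medians of 50.6 to 52.7 and no sign of a filter. Quantile normalization hides a change in total RNA per cell. Precision is limited by the 3 arrays per group (median standard error 0.086).

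Here the deposited intensities were turned into log2 values, and 62 control probe sets were left out. The platform annotation gives 41091 of the tested probe sets 1 symbol, 1801 several and 11721 none; Entrez numbers of 41037 matched a GRCh38.p14 gene table, 54 did not. All 54613 probe sets were fitted with limma 3.58.1 under R 4.3.3 (eBayes with default prior, 2-sided, 4 residual degrees of freedom, no replicate block) and adjusted by Benjamini-Hochberg over all of them. On simulated data with the spread of these arrays, 0% of planted log2 differences of 0.25 were recovered, 34% of 0.5, 94% of 1 and 100% of 2 (50 each, of 54613 probe sets), with 0 false calls. The simulation changed 200 probe sets, while 8996 passed in the data, so its adjustment was stricter. These rates therefore do not carry over to this comparison, where CCL5 204655_at passed at 0.28. Named are all member probe sets, up to 4 genes per list with the largest differences among those that passed, the remaining passing genes where at most 5 were counted, and 7 check genes. All 7 NF-kB genes that rose are named as well. Members, lists and motifs were chosen with earlier results of these data known; genes named without passing were chosen after their values were seen. Alternatives were a block for the replicate number, gene-level tests (brightest probe set, or mean), cyclic loess, median centring, a trended robust prior, array weights, no dim probe sets (those with a mean not above the median), no shared probe sets (names ending in _s_at, _x_at or _a_at), and each array left out. Promoter windows are from RefSeq (GRCh38.p14).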

Additional observations from a re-analysis of the deposited data

Results flagged for a closer look

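Probe set 205114_s_at was outside the comparison because the annotation gives it 3 gene symbols, CCL3, CCL3L1 and CCL3L3. Its signal therefore cannot be assigned to 1 of them. Its log2 signal was 9.19, 9.10 and 8.81 on the Dll4-Fc arrays, against 6.34, 6.64 and 6.53 on the untreated arrays, a difference of 2.53 ± 0.12 (limma adjusted p = 5.64e-06), with all 3 Dll4-Fc arrays higher. It was listed because this signal in data outside the comparison exceeded that of the untreated arrays, and no explanation was tested.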

How the results depend on the processing

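Both CCL23 probe sets, CCL2, CCL4 and CCL8 kept their direction and passed in every alternative that measured them. CCL2 has only 216598_s_at, a shared and dim probe set, so the alternatives without shared and without dim probe sets did not measure it. CCL8 was not measured without dim probe sets, nor CCL23 210549_s_at without shared ones. The replicate number as a block gave 5 member probe sets that passed, 3 higher and 2 lower, and took the calls of CCL5 1405_i_at (0.32, adjusted p = 0.0779) and 204655_at (0.28, 0.105); no other member call changed. The labels do not say whether the numbers pair the arrays. Deviations of same-numbered arrays correlated at -0.02, -0.14 and -0.13, and 0 of 3 Dll4-Fc arrays correlated best with their own number. With so few arrays these values cannot decide whether the numbers mark shared cultures.

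The number of member probe sets that passed was 4 without shared probe sets, where 9 of 13 are measured, and 5 to 6 with 1 array left out (3 to 4 higher, 2 lower). Median centring took the CCL5 calls (0.31 and 0.27), and leaving out shared probe sets that of 204655_at (0.28, adjusted p = 0.0579). Additional calls were CCL5 1555759_a_at with cyclic loess (0.31), a trended robust prior (0.25) and without dim probe sets (0.25), CCL20 with array weights (0.39), and CCL22 with array weights (-0.26), without dim probe sets (-0.24) and as the gene mean (-0.24). With 1 array left out, differences ranged over 0.24 to 0.38 for 1405_i_at, 0.21 to 0.32 for 204655_at, 0.24 to 0.47 for CCL20, 0.0052 to 0.15 for CCL18 209924_at, 0.037 to 0.084 for 32128_at and -0.087 to 0.063 for CCL7, which turned positive without Dll4-Fc replicate 2 (0.063). ITGAM gave -0.12 (adjusted p = 0.621) without shared probe sets. Causes were not tested.

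Over all features, 5262 (2298 higher, 2964 lower) of 19775 genes passed by brightest probe set, 4849 (2110, 2739) by mean and 5285 (2164, 3121) of 37394 without shared probe sets, where fewer features are tested. Leaving out 1 array gave 5711 to 9419 calls, 2784 to 3790 higher and 2906 to 5629 lower. The 7 lists held 30 calls, 22 to 29 with 1 array left out. Dim probe sets limit CCL7, CCL18 and CCL20, and the fold sizes of CCL2, CCL8, CCL4, CXCL10, CXCL11, CXCL1, CCRL2, ZFP36L1, CD14, GNLY, HES1 and HES4.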
